A study of Mus musculus with 6 samples.

Results

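A set of 10 genes of the bone morphogenetic protein (BMP) pathway were read across the fetal cortex libraries: the ligands Bmp4, Bmp6 and Bmp7, the receptor Bmpr1a, and the targets Id1, Id2, Id3, Id4, Msx1 and Msx2. They were chosen by symbol, as BMP ligands, a receptor and direct targets at the dorsal midline of the brain, and make up 10 of the 45583 rows of the count table. RNA sequencing had been carried out on brain cortex of 6 male mouse fetuses at GD15.5 (gestational day), with 1 library from each fetus. All 6 belonged to the Cyp19-EGFP strain, in which an added copy of the aromatase gene Cyp19a1 carries an enhanced green fluorescent protein gene, and the labels give the genotype of all 6 as wild type and Sry positive. The vehicle group (n = 3) came from dams given peanut oil. The BPA group (n = 3) came from dams given bisphenol A (BPA), a plastic monomer with estrogenic activity, at 50 µg/kg under the skin, and dosing ran from GD10.5 to GD14.5. Libraries are named by group and replicate number (vehicle 1 to 3, BPA 1 to 3), and values are given in that order. The labels identify fetuses and not dams, so that fetuses of 1 group may have shared a litter, and p-values measure only the spread between these fetuses.

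BMPs are secreted ligands that bind pairs of type I and type II receptors, of which Bmpr1a is a type I receptor. The receptors phosphorylate SMAD proteins, which enter the nucleus with Smad4 and raise transcription of Id and Msx genes. Id proteins lack a DNA-binding region and hold E proteins away from DNA, which keeps progenitors from differentiating, and Msx proteins are homeodomain repressors. In the developing forebrain, BMPs are made at the dorsal midline, by the cortical hem, choroid plexus and roof plate, and also by the meninges that cover the cortex.

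The promoters of the 10 genes, ligands and receptor included, were inspected for GGCGCC. It is a 6-base palindrome (the same on both strands) found in SMAD-bound GC-rich elements of BMP-responsive promoters. RefSeq promoter windows (GRCm38.p6) matched 8 of the 10 genes, and Bmp7 and Id1 had none in the table. In the 250 bases upstream of the RefSeq start site the motif occurred once each in Id2, Id4 and Bmpr1a, 3 of the 8 genes. It occurred in 10.8% of the 27025 genes with a window, and in 9.59% of all 32851 windows of that length. The motif holds only G and C, which made up 62.8% of these bases in Id2, 75.6% in Id4 and 78.8% in Bmpr1a. In the other windows of the chosen genes G and C made up 61.6% to 68.8%. The RefSeq start of Id2 and of Bmpr1a lies inside the gene span given below, downstream of its outer end, and 2 GENCODE transcripts of each gene begin in the window. For Id4 the RefSeq start lies upstream of the GENCODE start, and no GENCODE transcript begins in the window. A match is a description of these letters only. The stretches around all 3 matches are shown 5′ to 3′ on the gene's strand, with the motif in capitals. None of the 3 stretches overlapped an annotated exon of its own gene.
Id2, chr12:25096298-25096342, minus strand, motif starting 231 bases upstream: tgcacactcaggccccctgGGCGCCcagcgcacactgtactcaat
Id4, chr13:48260948-48260993, plus strand, motif starting 148 bases upstream: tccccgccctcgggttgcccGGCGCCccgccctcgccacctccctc
Bmpr1a, chr14:34502719-34502764, minus strand, motif starting 198 bases upstream: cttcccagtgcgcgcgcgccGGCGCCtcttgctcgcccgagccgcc

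Total counts ranged from 3444601 to 7180835 per library, and 3 counts, the limit that a count of 0 allows, corresponded to 0.422 to 0.875 CPM, that is, counts scaled to library size after trimmed mean of M-values (TMM) normalization. Marker lists were summed to describe the tissue, and they do not show that it was cortex alone. Radial glia markers summed to 2541 to 2658 CPM in vehicle and 2516 to 2658 CPM in BPA, led by Ptprz1, and those of cortical neurons and progenitors to 3805 to 4364 CPM and 3998 to 4282 CPM, led by Neurod6, with no marker of either list at 0 in any library. Non-cortical tissue was uneven. Choroid plexus markers (13 genes) summed to 250.3 CPM in vehicle 2 and 395 CPM in BPA 2, against 24.8 to 29.2 CPM in the other 4 libraries. Their leading gene Ttr, which encodes the thyroxine carrier of cerebrospinal fluid, had 15, 1386 and 29 counts in vehicle and 76, 1898 and 35 counts in BPA. Ttr alone made up most of the sum in vehicle 2 (195 CPM) and in BPA 2 (308 CPM). Not all of the 13 genes followed this pattern, and Prlr was lowest in BPA 2. Meningeal markers (12 genes, led by the collagen Col3a1) summed to 104 CPM in vehicle 3 and 88.1 CPM in BPA 2, against 25.4 to 37.8 CPM in the others. Choroid plexus genes at 0 numbered 4, 1 and 4 in vehicle and 1, 0 and 4 in BPA, and always came from Folr1, Aqp1, Cldn2, Calml4, Slc4a5 and Kcnj13, whereas the meningeal genes at 0 were Lum, Aldh1a2 and Slc6a13. Vehicle 2, vehicle 3 and BPA 2 therefore stood apart in choroid plexus or meningeal transcripts before any comparison. Other lists ordered the libraries otherwise. Blood markers summed to 447, 277 and 594 CPM in vehicle and 327, 411 and 350 CPM in BPA. Ventral telencephalon markers summed to 1190, 1162 and 1035 CPM in vehicle and 981, 991 and 902 CPM in BPA. Every BPA library thus lay below every vehicle library for this list.

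The 10 genes spanned a wide range of levels. Compared between genes as CPM per kilobase of exonic length (mean of 6 libraries), Id2 was highest at 60.4, followed by Id4 at 22.9 and Bmpr1a at 15.1. Id3 and Id1 came next at 4.13 and 3.94, then Bmp7 at 2.07. Bmp6 lay at 0.556, Msx1 at 0.418, Bmp4 at 0.231 and Msx2 at 0.0367 CPM per kilobase. The order of Id2 over Id4 over Bmpr1a over Id3, and of Bmp7 over Bmp6, held in 6 of 6 libraries. The neighbors Id3 and Id1, and likewise Bmp6 and Msx1, exchanged places, the first of each pair being higher in 3 of 6 libraries. Id1 exceeded Bmp7 in 5 of 6, Msx1 exceeded Bmp4 in 5 of 6, and Bmp4 exceeded Msx2 in 4 of 6.

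**Figure D1:**
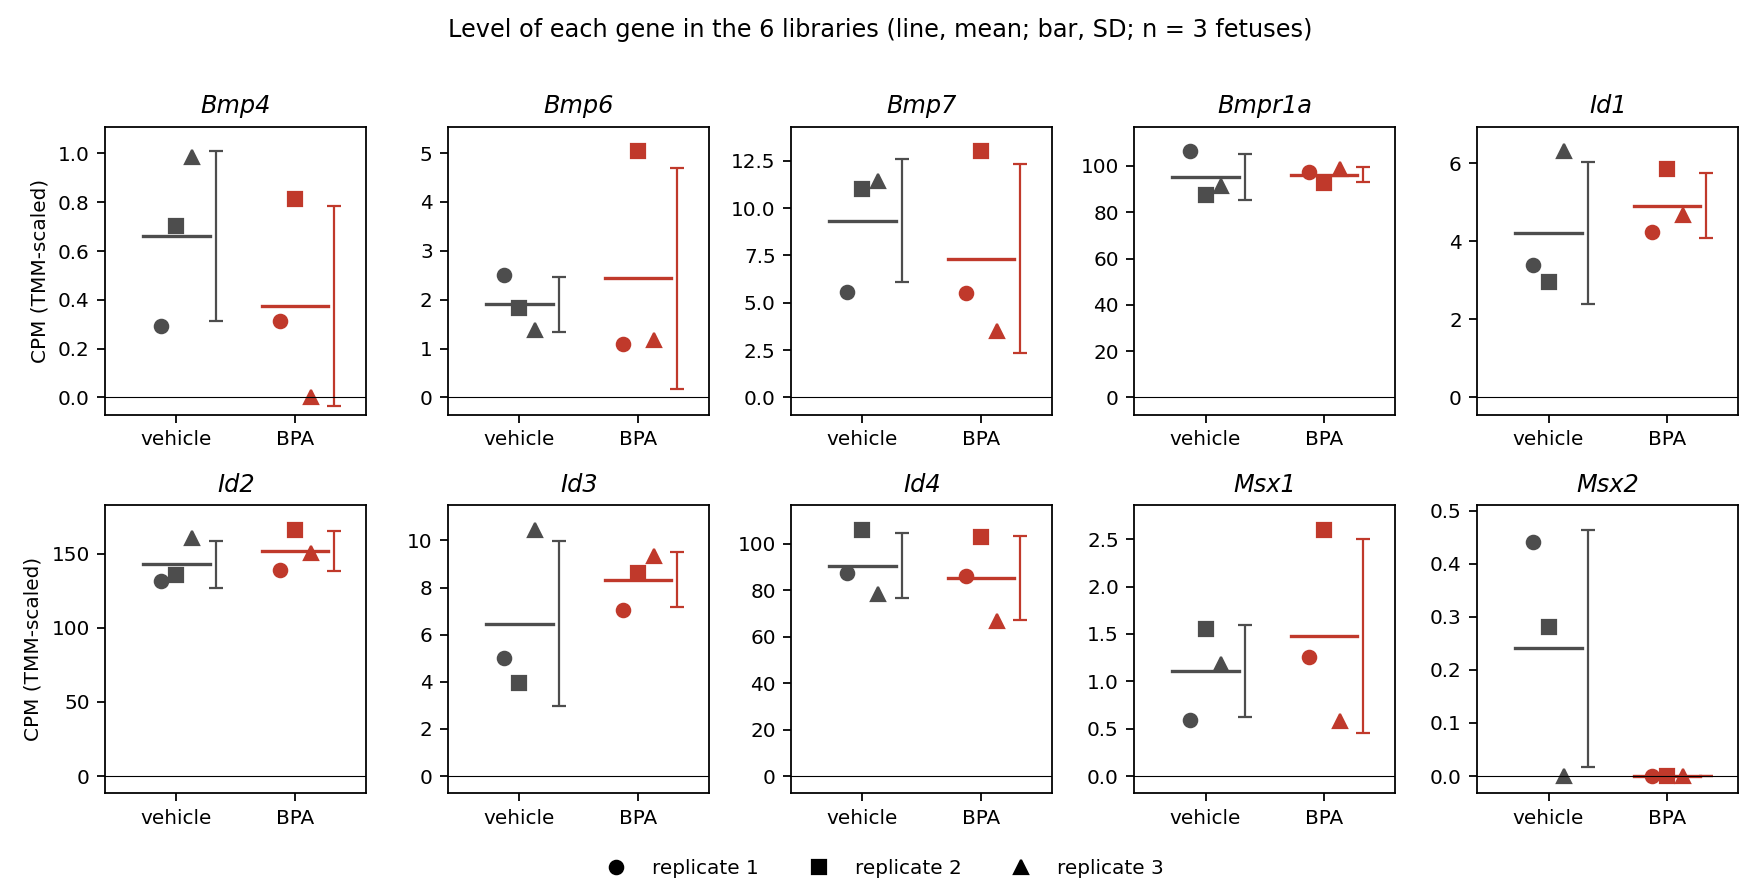
TMM-scaled CPM of the 10 genes in each library, on a separate linear axis for each gene (points, 1 fetus each; horizontal line, group mean; bar, SD, n = 3; grey, vehicle; red, BPA). The groups overlap for each of the 7 genes that were tested, and Bmp6, Bmp7, Msx1 and Id2 are highest in BPA 2.

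The comparison of the groups asked whether maternal BPA altered BMP ligands or the readout of the pathway in the male fetal cortex. Of the 10 genes, 7 had enough counts to be tested, and Bmp4, Msx1 and Msx2 did not. None of the 7 reached the threshold of 0.1 on the adjusted p (quasi-likelihood test of edgeR), nor did any of the 13741 genes tested (0%). The adjusted p-value of each of the 7 came to 1.0. DESeq2 called 3 genes, none of them among the 7, and limma-voom called 0. At an unadjusted p under 0.05 by edgeR there were 0 of the 7, beside 2.20% of all genes tested. The groups did not overlap for 0 of the 7, beside 6.75% of all genes tested. The fitted log2 fold change (BPA over vehicle) was above 0 for 5 genes and below 0 for 2, with a median of 0.09 beside 0.0016 over all genes. A p that misses the threshold does not show that levels were alike, and the 95% intervals below give the sizes that these libraries leave possible.

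**Figure D2:**
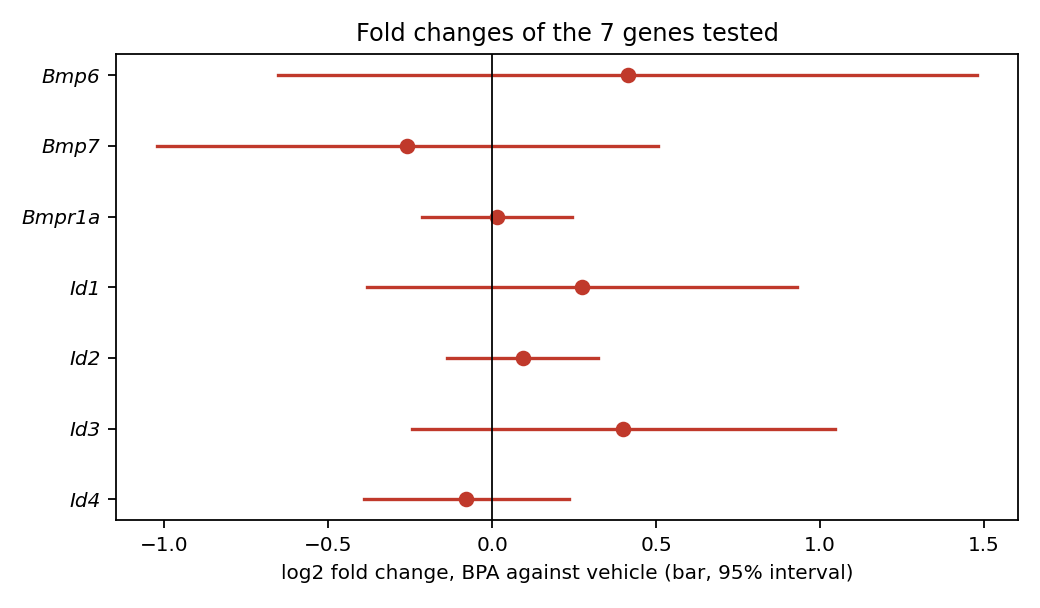
Log2 fold change (BPA over vehicle) of the 7 genes tested, with 95% intervals from edgeR's quasi-likelihood fit (n = 3 fetuses per group). All 7 intervals span 0, and that of Bmp6, from -0.65 to 1.48, is wider than that of Bmpr1a, from -0.21 to 0.24.

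Among the ligands, Bmp7 was the most abundant. Bmp7, a ligand of the BMP5/6/7 subgroup that is made in meninges and choroid plexus (chr2:172868012-172940321, minus strand, GRCm38), had 5.59, 11.0 and 11.4 CPM in vehicle and 5.50, 13.0 and 3.50 CPM in BPA. The groups overlapped, with the highest and the lowest values both in BPA, and the means were 9.34 ± 3.25 and 7.33 ± 5.01 CPM (SD, n = 3 each). The log2 fold change was -0.26 (SE 0.360, 95% interval -1.02 to 0.50). The value changed in size with the libraries used, from -0.0053 without BPA 3 and -0.041 without BPA 1 to -0.97 without BPA 2. Without BPA 2, Bmp7 lay below vehicle with no overlap (5.50 CPM at most against 5.59 at least; unadjusted p = 0.011, adjusted p = 0.995 by edgeR's quasi-likelihood test). With that library left out, the groups did not overlap for 2762 of 14010 genes tested. BPA 2 carried the highest choroid plexus sum and the second-highest meningeal sum. Vehicle 2, with a choroid plexus sum of 250.3 CPM, and vehicle 3, with a meningeal sum of 104 CPM, stayed in the comparison without BPA 2. They held the higher Bmp7 values of the vehicle group, whereas vehicle 1 and BPA 1 were close, at 5.59 and 5.50 CPM. The part of these tissues in the Bmp7 levels was not tested. In bulk tissue, fewer cells of a type and less RNA per cell cannot be told apart.

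Bmp6, a ligand of the same subgroup (chr13:38345107-38500302, plus strand), had 2.5, 1.83 and 1.38 CPM in vehicle and 1.1, 5.04 and 1.17 CPM in BPA. A single library, BPA 2, stood above all others, with 31 counts against 4 to 17, while the other BPA libraries were the lowest of the 6. The means were 1.9 ± 0.564 and 2.43 ± 2.25 CPM (SD, n = 3 each), and the log2 fold change of 0.41 (SE 0.502, 95% interval -0.65 to 1.48) turned to -0.78 without BPA 2 (unadjusted p = 0.142, adjusted p = 0.995 by edgeR's quasi-likelihood test), where the groups no longer overlapped. That setting had 2762 of 14010 tested genes without overlap. On all 6 libraries limma-voom gave 0.09 (unadjusted p = 0.865, adjusted p = 1.0). Bmp6 had the widest spread of the 7 genes tested, with a biological coefficient of variation of 0.319 against 0.173 expected from the trend at its level. Its exons share 224 bases with Txndc5 on the opposite strand, which had 200 to 483 counts per library, and 4.55% of its 50-base words occur there, so that its few counts are uncertain if strand was not used in counting.

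Bmp4, the ligand that patterns the dorsal midline (chr14:46383520-46390669, minus strand), had 2, 5 and 5 counts in vehicle and 2, 5 and 0 counts in BPA. Levels were 0.294, 0.704 and 0.986 CPM in vehicle and 0.314, 0.813 and 0 CPM in BPA. Levels were at or close to the limit of 3 counts in every library, and no difference in Bmp4 was detectable at this depth.

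The receptor was the steadiest of the 10 genes. Bmpr1a, which is widely expressed in neural progenitors (chr14:34410734-34503341, minus strand), had 106, 87.6 and 91.3 CPM in vehicle and 97.5, 92.5 and 98.6 CPM in BPA. All 3 BPA values lay inside the range of the vehicle values, and the highest library was 1.21 times the lowest. The means were 95.1 ± 9.94 and 96.2 ± 3.28 CPM (SD, n = 3 each), and the log2 fold change was 0.02 (SE 0.108, 95% interval -0.21 to 0.24). Its biological coefficient of variation was 0.0937, close to the 0.102 of the trend.

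Id2 was the most abundant target. Id2, an inhibitor of differentiation found in cortical progenitors and in neurons (chr12:25093799-25097140, minus strand), had 132, 136 and 161 CPM in vehicle and 139, 166 and 150.3 CPM in BPA. The groups overlapped, and the highest library was 1.26 times the lowest. With means of 142.7 ± 15.7 and 152 ± 13.5 CPM (SD, n = 3 each), the log2 fold change was 0.09 (SE 0.109, 95% interval -0.14 to 0.32).

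Id4, which is enriched in neural stem cells and progenitors (chr13:48261228-48266026, plus strand), had 87.5, 106 and 78.3 CPM in vehicle and 86.1, 103 and 66.8 CPM in BPA. The groups overlapped, and the lowest value of each group was in its shallowest library. The means were 90.6 ± 14.1 and 85.3 ± 18.1 CPM (SD, n = 3 each), with a log2 fold change of -0.08 (SE 0.147, 95% interval -0.39 to 0.23). The sign turned without vehicle 2, to 0.05, and without BPA 3, to 0.06. Id4 shares 82 exonic bases with A330033J07Rik on the opposite strand, which had 8 to 22 counts, and 171 with Gm49291.

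Id1 and Id3, which are also prominent in endothelium and meninges, lay below Id2 and Id4 per kilobase in every library. Id1 (chr2:152736251-152737410, plus strand) had 3.38, 2.96 and 6.31 CPM in vehicle and 4.24, 5.85 and 4.67 CPM in BPA. Id3 (chr4:136143497-136145755, plus strand) had 5.0, 3.94 and 10.45 CPM in vehicle and 7.07, 8.61 and 9.34 CPM in BPA. Both genes had their highest value in vehicle 3 and their lowest in vehicle 2, so that the BPA libraries lay within the vehicle range for both. The log2 fold change was 0.27 for Id1 (SE 0.309, 95% interval -0.38 to 0.93) and 0.40 for Id3 (SE 0.304, 95% interval -0.25 to 1.05). Group means for Id1 were 4.22 ± 1.83 and 4.92 ± 0.834 CPM, and for Id3 6.46 ± 3.49 and 8.34 ± 1.16 CPM (SD, n = 3 each).

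The size of both values depended on vehicle 2 and vehicle 3, the lowest and the highest library for both genes. Without vehicle 3, which held the highest meningeal sum, the log2 fold change was 0.64 for Id1 (unadjusted p = 0.0608) and 0.88 for Id3 (unadjusted p = 0.00517), with both genes above vehicle in all BPA libraries and adjusted p-values of 1.0 by edgeR's quasi-likelihood test. Across all genes, 1711 of 14012 tested did not overlap without vehicle 3. Leaving out vehicle 2 instead gave 0.07 for Id1 and 0.13 for Id3, and leaving out BPA 2 gave 0.11 for Id1 and 0.36 for Id3. With vehicle 2 and BPA 2 both left out, Id1 was at -0.09 and Id3 at 0.10. With vehicle 3 and BPA 2 both left out, Id1 was at 0.48 and Id3 at 0.84. Both pairs were chosen after seeing the data. The endothelial markers summed to 268 to 296 CPM in vehicle and 258 to 301 CPM in BPA, and their leading gene was the glucose transporter Slc2a1. The part of meningeal RNA in the Id1 and Id3 values was not tested.

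Msx1 and Msx2, the homeodomain targets that mark the roof plate and hem, were near the limit of detection. Msx1 (chr5:37820485-37824583, minus strand) had 4, 11 and 6 counts in vehicle and 8, 16 and 2 counts in BPA, or 0.588, 1.55 and 1.18 CPM and 1.26, 2.60 and 0.584 CPM. The groups overlapped, and the 2 libraries with the most choroid plexus RNA, vehicle 2 and BPA 2, were the highest of their groups for Msx1. Msx1 was below the count filter of the main test, and with a filter of 1 CPM in 3 libraries its log2 fold change was 0.52 (unadjusted p = 0.326, adjusted p = 1.0 by edgeR's quasi-likelihood test). Msx2 (chr13:53466884-53473074, minus strand) had 3, 2 and 0 counts in vehicle and 0 in each BPA library. All 6 values were at or under the limit of 3 counts, and no difference in Msx2 was detectable at this depth.

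The balance within each target family was compared as shares, which do not depend on library scaling. Of the length-scaled Id counts, Id2 made up 65.5% ± 2.16 in vehicle and 66.8% ± 2.63 in BPA, and Id4 made up 26.6% ± 5.31 and 23.6% ± 3.43 (SD, n = 3 each). Id1 held 4.0% ± 1.40 and 4.52% ± 0.311, and Id3 held 3.96% ± 1.81 and 5.01% ± 0.779 (SD, n = 3 each). Exact two-sided permutation tests gave p = 0.6 for Id1 and Id2, 0.5 for Id3 and 0.4 for Id4, where 3 against 3 cannot go below 0.1. Msx1 made up 81.3% ± 21.03 of the length-scaled Msx counts in vehicle and 100% in each BPA library (exact permutation p = 0.4), from only 2 to 16 Msx counts per library. Because vehicle 3 and every BPA library were tied at 100%, this test could not go below 0.4 for Msx1. It therefore cannot decide whether the Msx1 share differed. The adjusted p over the 5 shares was 0.6 for each.

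As shares of raw Id counts, with 95% Wilson intervals that cover counting error only, Id2 made up 57.9% (55.4 to 60.3), 54.6% (52.2 to 56.9) and 62.8% (60.2 to 65.4) in vehicle. In BPA the shares were 58.9% (56.4 to 61.3), 58.6% (56.2 to 60.9) and 65.0% (61.6 to 68.3). The spread between fetuses of 1 group exceeded the counting error, since vehicle 2 and vehicle 3, and BPA 2 and BPA 3, had intervals that did not overlap. In both groups the shallowest library had the highest Id2 share.

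**Figure D3:**
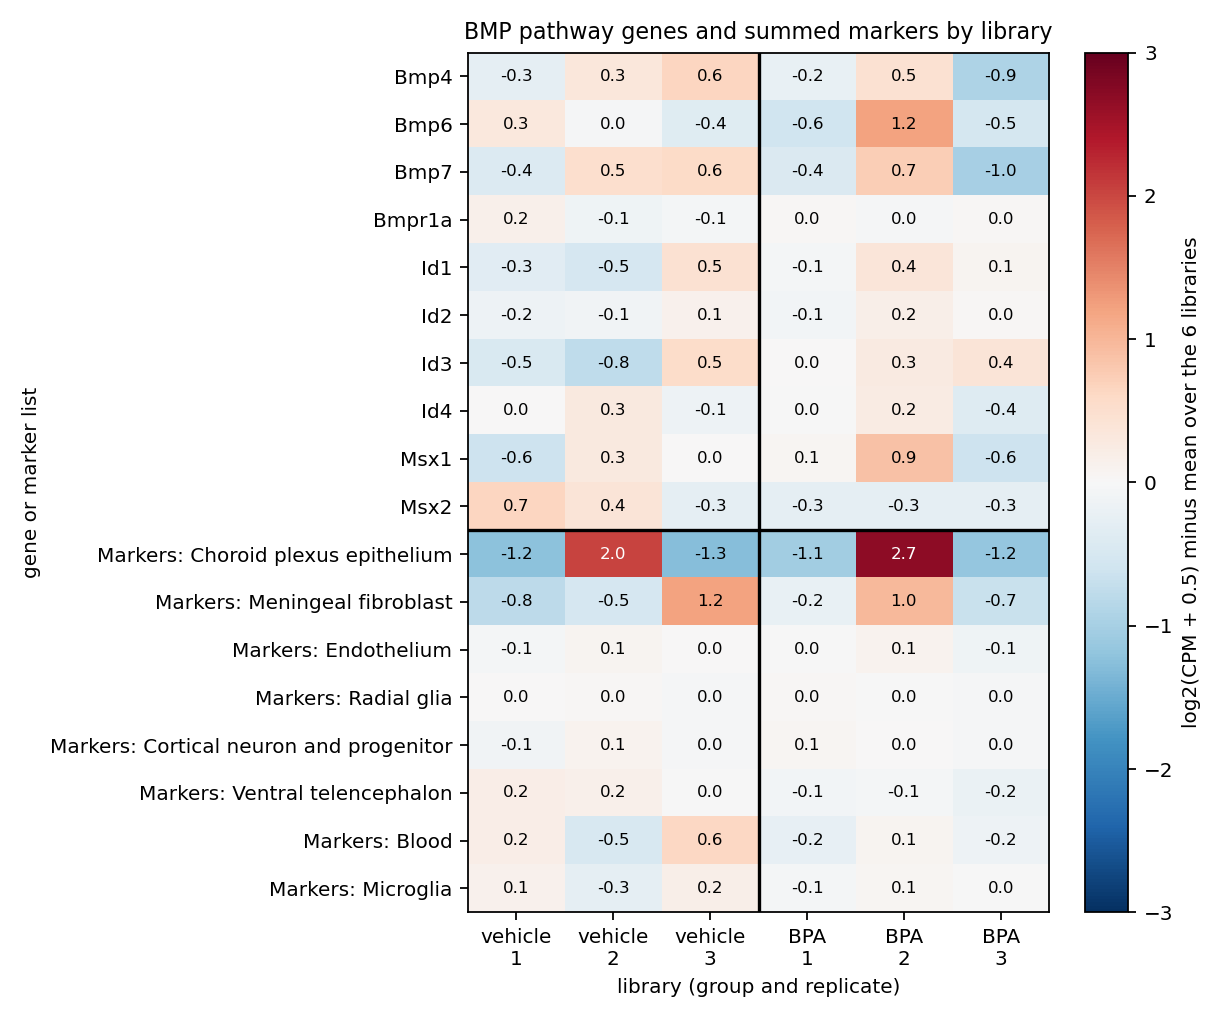
Level of each gene and summed level of each marker list in the 6 libraries, as log2(CPM + 0.5) minus its mean over the libraries (red, above the mean; blue, below). Choroid plexus markers stand out in vehicle 2 and BPA 2 and meningeal markers in vehicle 3 and BPA 2. BPA 2 holds the highest values of Bmp6, Bmp7, Id2 and Msx1, and vehicle 3 those of Bmp4, Id1 and Id3. Id4 is highest in vehicle 2, and Bmpr1a and Msx2 in vehicle 1. Id1 and Id3 are lowest in vehicle 2.

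Several of the genes shared the library in which they were highest. BPA 2 was the highest library for Bmp6, Bmp7, Id2 and Msx1. For Bmp6, which had the widest range of log2 CPM among the genes averaging at least 1 CPM (1.9 with a prior count of 2), the 5 transcripts of most similar pattern among 11588 candidates were Tmem5 (r = 0.992), Gstm7 (r = 0.978), Spin3-ps (r = 0.971), Ubr7 (r = 0.970) and Rpap3 (r = 0.969). These correlations are over 6 libraries that include the treatment, and serve as a description only. In plain CPM, the highest library was 4.58 times the lowest for Bmp6, 3.71 times for Bmp7, 4.46 times for Msx1, 2.65 times for Id3, 2.13 times for Id1 and 1.59 times for Id4.

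Other genes of the pathway were counted from lists of 54 genes, of which 44 were tested. None passed the adjusted threshold by edgeR, 20 had a log2 fold change above 0 and 24 below 0, and the median was -0.02. At an unadjusted p under 0.05 there was 1 gene higher and 1 lower in BPA, 2 of the 44, beside 2.20% of all genes tested. The groups did not overlap for 4 of the 44 (9.09%), 1 above and 3 below, beside 6.75% of all genes tested.

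Of the 10 other ligands, only Bmp3 (log2 fold change 0.03) and Bmp2 (0.01) had enough counts, and Bmp10 was at 0 in every library. All 10 other receptors and co-receptors were tested, with 3 above 0 and 7 below, and the most abundant were the co-receptor Neo1 (-0.01) and the type II receptor Bmpr2 (-0.05). The co-receptors Rgma and Rgmb, named after their values were seen, had BPA libraries that all lay below vehicle. Rgma had 168, 166 and 162 CPM in vehicle and 140.4, 150.0 and 145 CPM in BPA (log2 fold change -0.19, unadjusted p = 0.0556, adjusted p = 1.0 by edgeR's quasi-likelihood test). Rgmb was at -0.16 (unadjusted p = 0.137, adjusted p = 1.0 by the same edgeR test).

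Of the 6 SMAD genes of the BMP branch, 5 were tested, 1 above 0 and 4 below. Smad5, which carries the BMP signal, was at -0.01, and its partner Smad4 was at -0.12 with all BPA libraries below vehicle (unadjusted p = 0.224, adjusted p = 1.0 by edgeR's quasi-likelihood test). The 14 antagonists and other brakes divided evenly, with 7 above 0 and 7 below. The most abundant were the ubiquitin ligase Smurf1 (0.05) and the chordin partner Twsg1 (0.08). Nbl1, which encodes a secreted BMP antagonist of the DAN family, had 11.5, 9.29 and 11.2 CPM in vehicle and 6.75, 9.43 and 6.71 CPM in BPA. The groups overlapped through vehicle 2 and BPA 2, and the log2 fold change was -0.46 (SE 0.211, unadjusted p = 0.0443, adjusted p = 1.0 by edgeR's quasi-likelihood test). The E proteins that Id proteins bind, Tcf4, Tcf12 and Tcf3, were at 0.07, -0.06 and -0.02.

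Of the 11 genes of the cortical hem and roof plate, 10 were tested, 6 above 0 and 4 below, with a median of 0.23. The most abundant were the Wnt feedback target Axin2 (log2 fold change 0.11) and the ligand Wnt5a (-0.08). Rspo3, a secreted enhancer of Wnt signaling made in the hem, had 22.4, 19.4 and 22.1 CPM in vehicle and 29.2, 28.9 and 24.5 CPM in BPA. All 3 BPA libraries lay above vehicle, with a log2 fold change of 0.39 (SE 0.138, unadjusted p = 0.0130, adjusted p = 1.0 by edgeR's quasi-likelihood test). Lmx1a, a hem transcription factor named after its values were seen, had 0.441, 3.8 and 1.38 CPM in vehicle and 2.83, 5.04 and 2.92 CPM in BPA, which overlapped (log2 fold change 0.92, unadjusted p = 0.0837, adjusted p = 1.0 by edgeR's quasi-likelihood test).

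**Figure D4:**
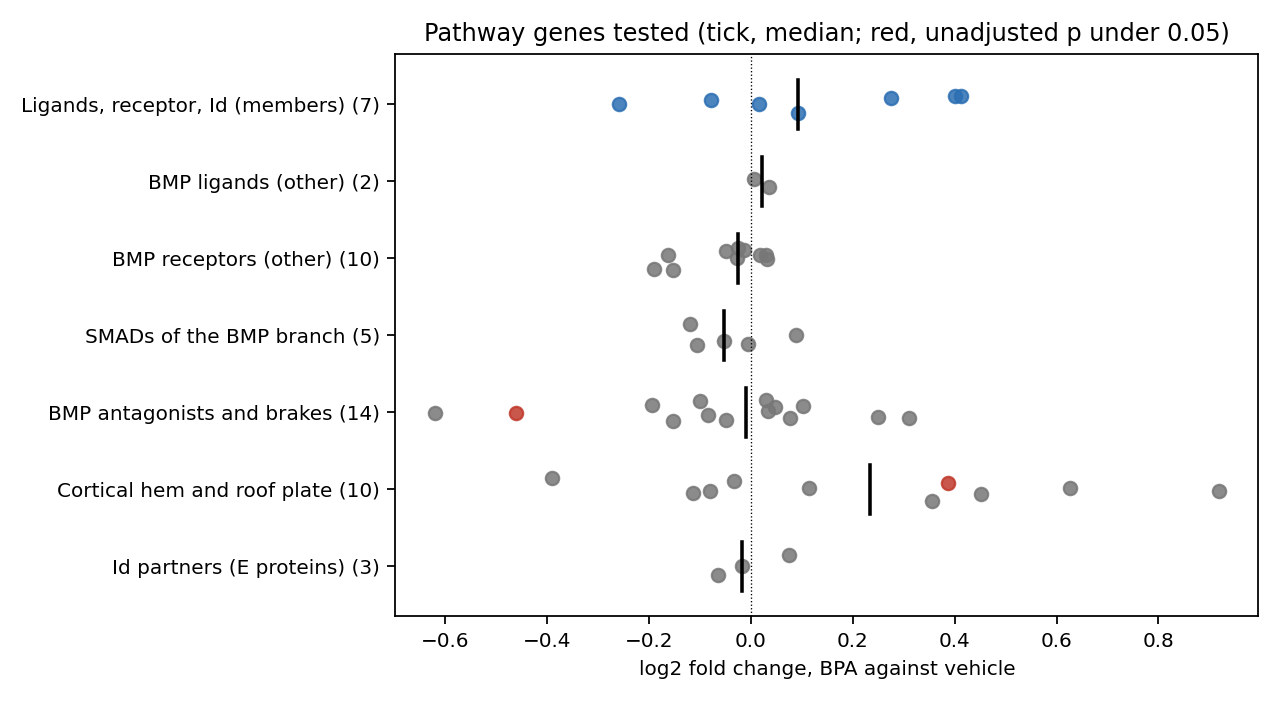
Log2 fold change (BPA over vehicle) of each tested gene by list, with the number tested in brackets (points, genes; blue, the 7 tested of the 10 chosen genes; grey, other pathway genes; red, those with an unadjusted p under 0.05; tick, median; n = 3 fetuses per group). Values lie on both sides of 0 in every list except the 2 other ligands, and none of the 44 other pathway genes passed an adjusted p of 0.1.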

How the data were processed

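The authors deposited read counts per gene, whole numbers without normalization, for 6 libraries. According to the study's methods, strand-specific libraries were read as 50-base single ends, aligned to GRCm38 with TopHat (version 2.0.14 in the submitters' processing notes) and counted on GENCODE genes with featureCounts. Use of strand and of multiply aligned reads in counting was not given in the sources used here, and either choice can move counts of overlapping genes. The methods give the age as GD15.5, and the study's results section gives a later one.

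Groups came from the labels, and replicates were numbered in accession order. In R 4.3.3, genes were kept by filterByExpr of edgeR 4.0.16 (minimum count 10, minimum total 15), which left 13741 of 45583 rows with 99.7% of counts. Libraries were TMM-scaled, and the effect of BPA was tested with no covariate by quasi-likelihood in edgeR, taking Benjamini-Hochberg adjustment over all genes tested and a threshold of 0.1. Standard errors were derived from the quasi-likelihood F statistic. Exonic lengths and coordinates came from GENCODE M21. The scripts were tested on simulated data. Alternatives were DESeq2 1.42.0, limma-voom (limma 3.58.1), 3 other scalings, 2 other filters and omission of each library. Omission of 2 libraries at once was chosen after seeing the data.

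The 10 genes and all lists were chosen with earlier results of these data known. Named beside the 10 genes were the 2 most abundant genes of each pathway list, any with an unadjusted p under 0.05, the 5 genes most similar in pattern to the most variable one, the leading marker of a list, and Ttr.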

Additional observations from a re-analysis of the deposited data

How the results depend on the processing

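No paired analysis was possible because replicate numbers follow accession order and pair no samples. The adjusted p of the tested genes stayed between 0.987 and 1.0 with the other tools, scalings and filters and with any 1 library left out. Across all genes, the count with an adjusted p under 0.1 was 3 with DESeq2, 19 without a filter, 0 to 1 when 1 library was left out, 15 without vehicle 2 and BPA 2, and 2 without vehicle 3 and BPA 2. The count at an unadjusted p under 0.05 was 126 with DESeq2, 620 without a filter and 194 to 708 with 1 library left out. It was 954 without vehicle 2 and BPA 2, and 295 without vehicle 3 and BPA 2. Groups did not overlap for 1433 of 23501 genes without a filter, and for 1711 to 2762 with 1 library left out, of 13884 to 14037 tested. Without the first and the second pair the counts were 4800 of 13643 and 3798 of 13902. Of the pathway's 7 tested genes, 0 to 1 reached an unadjusted p of 0.05 with 1 library left out, and 1 and 2 without the pairs (Bmp7 at -0.80, and Bmp7 at -0.82 with Id3 at 0.84). With 1 library left out, groups did not overlap for 0 to 3 of these genes, beside the counts over all genes given above. Without the pairs this held for 1 and 6 of them, and Bmp6 was not tested without the first pair.

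With 1 library left out, log2 fold changes ran from -0.78 to 0.83 for Bmp6, -0.97 to -0.0053 for Bmp7, -0.042 to 0.10 for Bmpr1a, 0.07 to 0.64 for Id1, 0.02 to 0.18 for Id2, 0.13 to 0.88 for Id3 and -0.24 to 0.058 for Id4. Without vehicle 2 and BPA 2, Bmpr1a was at -0.0089, Id1 at -0.087 and Id2 at -0.0081, and Bmp6 fell below the filter. Without vehicle 3 and BPA 2, Bmp6 was at -0.93 and Id4 at -0.33. Share differences (BPA minus vehicle) ran from -0.032 to 1.31 points for Id1, -0.14 to 2.44 for Id2, 0.33 to 2.07 for Id3, -5.81 to -0.57 for Id4 and 7.33 to 28.1 for Msx1. What caused these shifts was not tested. Of the recomputed log2 fold changes and share differences, 12 changed sign, some of them only without the pairs chosen after seeing the data. Values that kept their sign could still change in size, as for Bmp6 at 0.086 with limma-voom. Depth limits Bmp4, Msx1 and Msx2, whose counts did not exceed 16 in any library.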

Other observations

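Ventral telencephalon markers, which share no gene with the BMP lists, had lower sums in BPA than in vehicle, at 902 to 991 CPM against 1035 to 1190 CPM, with Dlx1 as the leading gene. All 10 had a log2 fold change below 0, beside 49.5% of all genes tested. By edgeR's quasi-likelihood test 5 of the 10 had an unadjusted p under 0.05, beside 2.20% of all genes, and 7 did not overlap between the groups, beside 6.75%. None passed the adjusted threshold by edgeR on all 6 libraries after the count filter. Nkx2-1, named after its values were seen, had a log2 fold change of -1.25 and an adjusted p of 0.251 there, 0.00137 with DESeq2, and from 2.73e-11 without a filter to 1.0 without BPA 1. Lhx8, also named after its values were seen, had a log2 fold change of -1.34 and an adjusted p of 1.0 by the same edgeR test, 3.49e-06 without a filter, 0.00931 without vehicle 2 and BPA 2, and 0.0495 without vehicle 3 and BPA 2. The list was chosen with earlier results of these data known. Blood markers, led by Hbb-bs, summed to 277 to 594 CPM in vehicle and 327 to 411 CPM in BPA. Microglia markers, led by Csf1r, summed to 60.5 to 82.4 CPM and 70.5 to 76.9 CPM.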
